A study of Mus musculus with 6 samples.

Results

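The genes described here are 51 genes of cell cycle control, DNA replication and mitosis, measured in the gastric corpus of mice with and without dexamethasone. They were chosen by name, as the rows of the expression table whose probe set carried 1 of the listed symbols, and 49 of the 51 were found among the 19919 named genes of the array. The cyclin gene Ccnb1 and the sliding clamp gene Pcna were not matched to a probe set and are not analysed here. All mice were female wildtype Balb/c animals of 8 to 12 weeks. In the dexamethasone group, 3 samples came from mice that took up the synthetic glucocorticoid with their drinking water at 50 mg/l over 3 days, with 1 renewal on day 2. The 3 control samples came from mice without treatment. Samples are labelled as biological replicates, and whether 1 sample is 1 animal or a pool is not stated, so the p-values measure the spread between these samples. Each value is the log2 expression level of 1 probe set on 1 Affymetrix array, and 3 arrays per group limit the precision of everything that follows.

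A dividing cell passes through the G1, S, G2 and M phases under the control of cyclins and their partner kinases. Before S phase, origins of replication are licensed by loading the MCM helicase with the help of Cdc6 and Cdt1, and in S phase polymerases copy the DNA behind the moving helicase. In M phase the chromosomes are condensed, attached to the spindle at their kinetochores and pulled apart, and cytokinesis then divides the cell. E2F factors drive many replication genes, and FOXM1 together with the MuvB complex drives many mitotic genes. In the corpus, most divisions take place in the isthmus of the gastric gland, from which short-lived surface mucous cells and longer-lived parietal and chief cells are replenished.

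The labelled tissue carried its defining genes, the proton pump subunits Atp4a and Atp4b, at 13.8 to 13.9 and 13.7 to 13.8 on the log2 scale over the 6 arrays. The mean over 14 corpus epithelium markers was 12.1 to 12.4. Of these, 1 passed the test, the endocrine cell gene Chga, which rose 1.76-fold (limma adjusted p = 0.00240). The list had 7 markers below 0 and 7 above 0 in log2 change, with a median of 0.0016. Not past the threshold, the mucous cell genes Tff2 and Muc5ac had log2 changes of -0.61 and -0.29 with groups apart (adjusted p = 0.130 and 0.190). The endocrine cell gene Ghrl had 0.33, also with groups apart (0.155). Groups overlapped for the mucous cell gene Muc6 at -0.81 and the pepsinogen gene Pga5 at -0.80 (0.390 and 0.263). Markers of squamous epithelium, the stratified lining of the adjoining forestomach, varied within both groups. The mean over 23 such markers was 8.41, 9.74 and 8.55 in control replicates 1 to 3 and 9.91, 9.99 and 8.55 in dexamethasone replicates 1 to 3. Of the 23, 22 were above 0 in log2 change, and 1 passed the test, the keratin gene Krt6a, which rose 1.53-fold (limma adjusted p = 0.0362). For B and T lymphocytes, the mean over 12 markers lay between 6.88 and 7.09 in the controls and between 6.83 and 6.88 under dexamethasone. That list had 7 markers below 0 and 5 above 0 in log2 change, with a median of -0.033. Of the 12, 1 passed the test, the pan-leukocyte gene Ptprc, which fell 1.55-fold (limma adjusted p = 0.0228). For haematopoietic and myeloid cells, the mean over 12 markers was 8.12 to 8.36 in the controls and 8.25 to 8.29 under dexamethasone, with Itgax lower and the scavenger receptor gene Cd163 higher past the threshold. In these 2 immune lists the share of a marker's cells and its RNA per cell cannot be separated, and their part in the results below was not tested.

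Every one of the 49 measured genes had a lower mean under dexamethasone than in the controls, and 5 of them passed the test. The 5 that fell were Mki67, the standard marker of proliferating cells, at 1.67-fold, the replication licensing genes Mcm6 and Cdc6 at 1.47-fold and 1.29-fold, and the mitotic motor genes Kif11 and Kif23 at 1.43-fold and 1.40-fold. The median log2 change of the 49 genes was -0.26, which is 83.5% of the control level, against a median of 0.0023 over all genes tested. A log2 change below 0 was found in 49.1% of all genes. The test was limma on all 19919 genes, with a threshold of 0.05 on the Benjamini-Hochberg adjusted p. By that rule 1.04% of all genes were called lower, 0.798% higher and 1.84% in either direction. None of the 49 was called higher by limma, nor did any reach an unadjusted p under 0.05 on the higher side, where 5.97% of all genes stood. On the lower side, 27 of the 49 had an unadjusted p under 0.05, beside 7.14% of all genes. The 3 dexamethasone values lay below the 3 control values in 30 of the 49 genes, beside 9.46% of all genes, and above them in 0, beside 8.84%. The genes were listed with earlier results of these data known, and genes of 1 cell cycle programme are not independent of each other. In whole tissue, fewer dividing cells and less RNA per cell cannot be told apart. The squamous marker mean was also uneven between the groups. With it as a covariate, 45 of the 49 genes were below 0, with a median of -0.20.

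**Figure D1:**
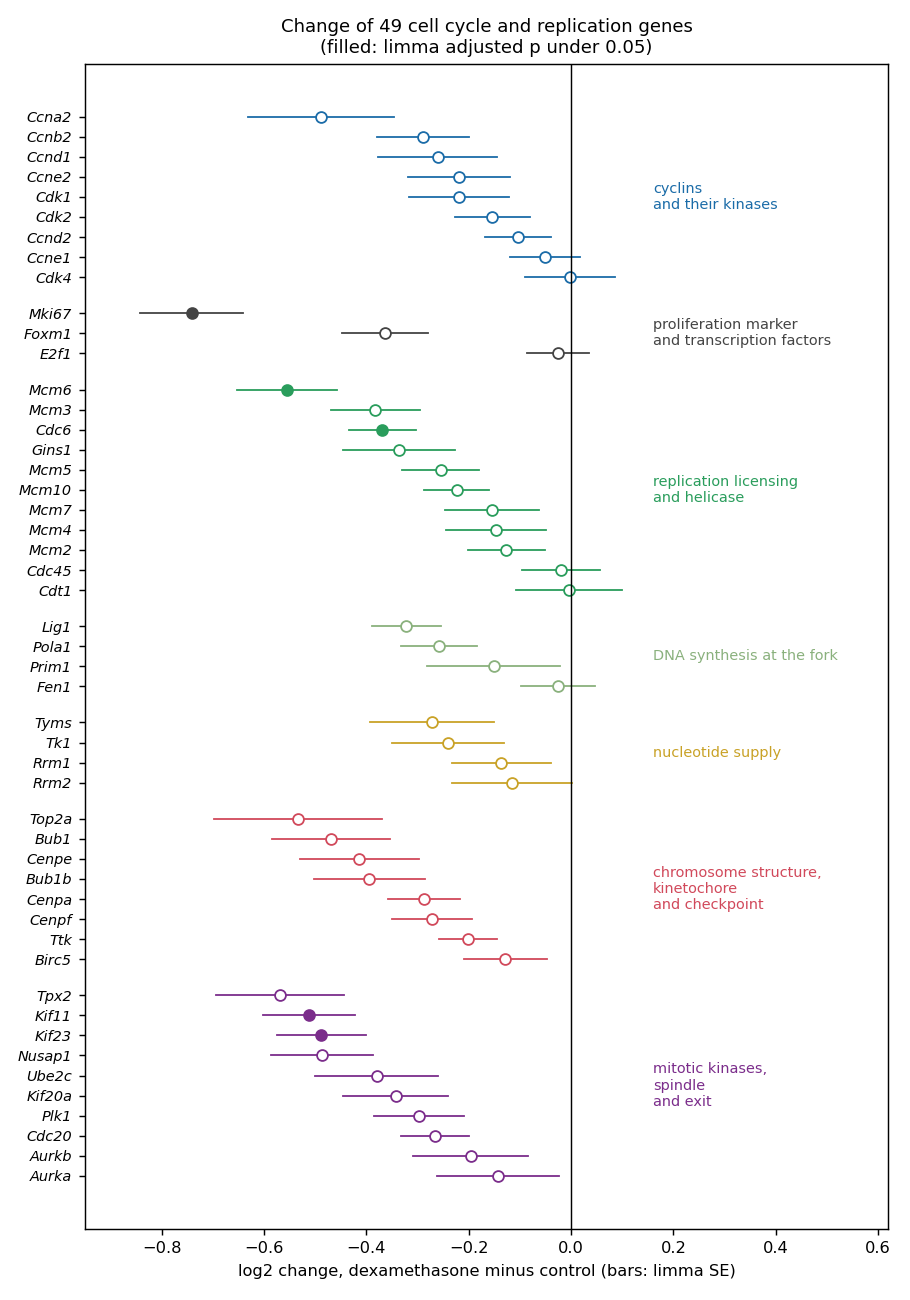
Log2 change (dexamethasone minus control, x axis) of the 49 measured genes, grouped by role, each point with its limma standard error as a bar and n = 3 arrays per group. All points lie below 0, from -0.74 for Mki67 to -0.0028 for Cdk4, and the 5 filled points passed the limma threshold.

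The 5 genes that fell were apart between the groups on every array. Mki67 stood at 9.37, 9.70 and 9.64 in the controls and at 8.81, 8.73 and 8.94 under dexamethasone. Its lowest control lay well above its highest treated array, and the log2 change was -0.74 (SE 0.10, limma adjusted p = 0.0151). Mcm6, a subunit of the replicative helicase, read 8.07, 8.03 and 8.25 against 7.58, 7.39 and 7.71. That is a log2 change of -0.55 (SE 0.098, limma adjusted p = 0.0390), and the treated arrays were all lower. Cdc6, the loader of that helicase at origins, read 8.26, 8.38 and 8.41 against 8.00, 7.93 and 8.01. Both groups were tight, and the log2 change was -0.37 (SE 0.066, limma adjusted p = 0.0391). Kif11, the kinesin that pushes the spindle poles apart, read 8.66, 8.49 and 8.46 against 7.98, 7.92 and 8.18. Its log2 change was -0.51 (SE 0.089, limma adjusted p = 0.0377), with dexamethasone replicate 3 closest to the controls. Kif23, a kinesin of the central spindle needed for cytokinesis, read 8.69, 8.39 and 8.46 against 8.01, 8.01 and 8.06. The treated arrays of Kif23 were nearly equal, with a log2 change of -0.49 (SE 0.086, limma adjusted p = 0.0390).

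**Figure D2:**
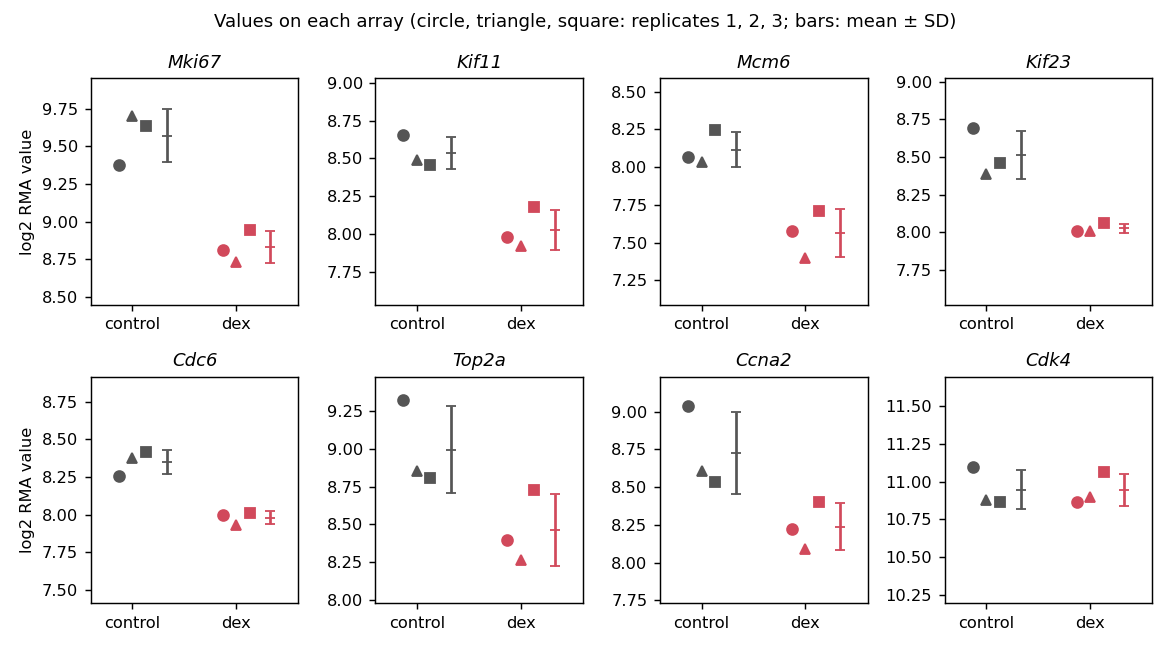
Log2 RMA value (y axis, each panel spanning the same range around the gene's own mean) on each of the 6 arrays for the 5 genes that fell and for Top2a, Ccna2 and Cdk4, which were picked for display after their values were seen, with the mean ± SD of each group (n = 3) as bars. The groups are apart for every gene shown except Cdk4, and control replicate 1 is the highest array for Top2a at 9.33 and Ccna2 at 9.04.

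The number of calls depended on single arrays. Instead of 5 genes, 3 were called with control replicate 1 left out, 1 with control replicate 2 left out and 0 with control replicate 3 left out. The same fits called 297, 97 and 53 of all genes lower, against 208 with all 6 arrays. On the treated side the number of the 49 was 0 in the absence of replicate 1, 0 in that of replicate 2 and 7 in that of replicate 3. Beside these, 61, 48 and 259 of all genes were called lower. The 7 of the 49 were Mki67, Mcm3, Mcm6, Plk1, Tpx2, Nusap1 and Kif11. Over the same 6 fits, between 46 and 49 of the 49 genes had a log2 change below 0. Mki67 lost its call without control replicate 3 (limma adjusted p = 0.0957), dexamethasone replicate 1 (0.0790) or dexamethasone replicate 2 (0.0883). Mcm6 lost it without any array but dexamethasone replicate 3 (up to 0.181), and so did Kif11 (up to 0.176). Cdc6 and Kif23 lost theirs without any array but control replicate 1 (up to 0.198 and 0.181). With the squamous marker mean of each array as a covariate, Mki67, Mcm6, Kif11 and Kif23 stayed past the threshold and Cdc6 had a limma adjusted p of 0.0524. In that fit 45 of the 49 genes had a change below 0, with a median of -0.20. It called more of all genes, 267 lower and 231 higher, against 208 and 159 without the covariate. The covariate was itself uneven between the groups, being high on dexamethasone replicates 1 and 2 and on control replicate 2. A fit with array weights called 30 of the 49 lower and 1003 genes lower in all.

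The promoters of the 5 genes that fell are shown because replication and mitotic genes are known for different promoter motifs. Each line gives the 150 bases before the annotated start from RefSeq (build GRCm38.p6), read 5′ to 3′ on the gene's strand. Capitals mark matches, on either strand, to the E2F motif (TTTCCCGC or TTTCGCGC or TTTGCCGC or TTTGGCGC), to the cell cycle homology region or CHR (TTTGAA or TTCGAA), which the MuvB complex binds, and to the CCAAT box (CCAAT), which NF-Y binds. None of these words holds another of them. Positions count back from -1, the last base before the start.
Mki67, chr7:135716380-135716529, minus strand: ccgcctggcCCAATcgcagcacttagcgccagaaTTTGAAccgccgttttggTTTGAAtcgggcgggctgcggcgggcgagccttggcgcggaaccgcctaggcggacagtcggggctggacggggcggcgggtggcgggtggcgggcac
Kif11, chr19:37376232-37376381, plus strand: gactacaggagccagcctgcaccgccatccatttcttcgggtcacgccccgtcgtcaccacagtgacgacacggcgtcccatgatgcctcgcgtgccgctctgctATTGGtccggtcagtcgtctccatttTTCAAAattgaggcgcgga
Kif23, chr9:61946800-61946949, minus strand: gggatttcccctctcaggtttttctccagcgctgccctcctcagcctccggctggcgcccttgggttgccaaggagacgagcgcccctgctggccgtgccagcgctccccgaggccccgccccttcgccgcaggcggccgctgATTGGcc
Mcm6, chr1:128359706-128359855, minus strand: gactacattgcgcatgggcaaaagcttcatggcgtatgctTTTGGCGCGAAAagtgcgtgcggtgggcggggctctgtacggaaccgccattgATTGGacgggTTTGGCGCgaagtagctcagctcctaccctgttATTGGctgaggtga
Cdc6, chr11:98908001-98908150, plus strand: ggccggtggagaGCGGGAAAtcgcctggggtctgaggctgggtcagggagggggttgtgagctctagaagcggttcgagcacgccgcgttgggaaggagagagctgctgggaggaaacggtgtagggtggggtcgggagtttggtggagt

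Mki67 held a pair of CHR words, at -116 to -111 and at -98 to -93, behind a CCAAT box at -141 to -137. Kif11 held a CHR word at -19 to -14 and a CCAAT box at -45 to -41, both on the opposite strand. Kif23 held a CCAAT box at -7 to -3 in this stretch, and its CHR word lay after the start. Mcm6 held 3 E2F words, at -110 to -103, -106 to -99 and -47 to -40, of which the first pair overlap on opposite strands, and Cdc6 held 1 at -138 to -131. A match describes the letters of the window and is not evidence that a factor binds there.

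Windows of 300 bases, from 250 before to 50 after the start, were at hand for 39 of the 49 genes and for 15145 of all genes tested. A CHR word was in 19 of the 39 windows (48.7%), beside 19.1% of all genes with a window. An E2F word was in 10 (25.6%), beside 3.47% of all genes, and a CCAAT box in 28 (71.8%), beside 42.0%. The words divided in part by role. Among the 15 genes of chromosome structure, kinetochore, mitotic kinases and spindle, 12 held a CHR word and 0 an E2F word, whereas among the 17 genes of licensing, fork and nucleotide supply 4 held a CHR word and 8 an E2F word. Of these 8, 6 were licensing and 2 fork genes. Of the 4 nucleotide supply genes, 0 held a CHR word and 0 an E2F word. Both words were in 2 of the 39, Cdk1 and Mcm7 (5.13%), beside 0.621% of all genes with a window. The median log2 change was -0.29 in the 19 genes with a CHR word and -0.23 in the 20 without, and -0.26 in the 10 genes with an E2F word and -0.27 in the 29 without. The 28 genes with a CCAAT box had a median of -0.27 and the 11 without had -0.13. These medians are descriptions of overlapping groups of genes and were not tested.

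**Figure D3:**
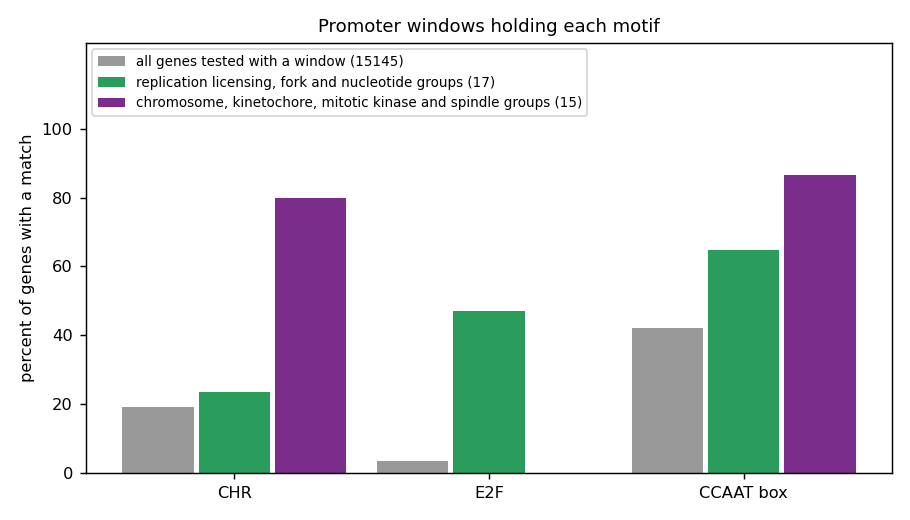
Percent of genes (y axis) whose 300-base promoter window holds a CHR word, an E2F word or a CCAAT box, for all 15145 genes tested with a window (grey), 17 replication genes (green) and 15 mitotic genes (purple). CHR words are in 80.0% of the mitotic and 23.5% of the replication windows, and E2F words in 0 and 47.1%.

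Cyclins and their kinases had a median log2 change of -0.22, and 0 of the 9 measured passed in limma. Before adjustment 2 had p under 0.05 on the lower side, beside 7.14% of all genes. The largest difference of these 9 was in Ccna2, cyclin A of S and G2 phase. It read 9.04, 8.61 and 8.53 in the controls and 8.22, 8.09 and 8.40 under dexamethasone. The groups did not overlap, but the control spread was wide (log2 change -0.49, SE 0.14, limma adjusted p = 0.179). Ccnb2, a mitotic B-type cyclin, read 8.31, 8.10 and 8.30 against 7.89, 7.86 and 8.09. Those groups nearly touched at control replicate 2 and dexamethasone replicate 3 (change -0.29, limma adjusted p = 0.209). The mitotic kinase gene Cdk1 read 7.74, 7.48 and 7.39 against 7.29, 7.26 and 7.41, so that control replicate 3 lay just below dexamethasone replicate 3 (change -0.22, adjusted p = 0.398). The changes of the G1 genes ran from near 0 to -0.26. Cdk4, the partner kinase of D cyclins, had a log2 change of -0.0028 with a 95% interval of -0.21 to 0.20. For Ccne1, cyclin E1 of the G1 to S transition, it was -0.052 (interval -0.21 to 0.11), and for its paralog Ccne2 -0.22 (-0.45 to 0.01). The D cyclin genes Ccnd1 and Ccnd2, which answer to growth factors, had changes of -0.26 and -0.10, and Cdk2, the partner of cyclins E and A, had -0.15 (adjusted p = 0.406, 0.573 and 0.437). Ccnd2 was the brightest of the 49 genes, with a mean of 12.1 over the 6 arrays.

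Among the transcription factors, Foxm1, the activator of mitotic genes, read 7.79, 7.56 and 7.55 in the controls and 7.24, 7.22 and 7.35 under dexamethasone. Its treated arrays were all lower, with a log2 change of -0.36 (SE 0.084, limma adjusted p = 0.0948). E2f1, an activator of replication genes, read 6.97, 6.99 and 7.04 against 7.03, 6.98 and 6.92. The groups of E2f1 overlapped, with a change of -0.025 and an interval of -0.16 to 0.11.

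Of the 11 licensing and helicase genes, Mcm6 and Cdc6 fell, 9 did not pass, and the median log2 change was -0.22. Mcm3, another helicase subunit, read 9.44, 9.36 and 9.40 in the controls and 9.07, 8.84 and 9.15 under dexamethasone, a change of -0.38 with no overlap (SE 0.087, limma adjusted p = 0.0909). The 6 subunits of the same MCM2-7 ring did not show 1 common size. Their changes were -0.13 for Mcm2, -0.38 for Mcm3, -0.15 for Mcm4, -0.25 for Mcm5, -0.55 for Mcm6 and -0.15 for Mcm7, with standard errors from 0.075 to 0.098. Groups were apart for Mcm3, Mcm5 and Mcm6 and overlapped for Mcm2, Mcm4 and Mcm7. Differences between the subunits were not tested. Gins1, a subunit of the GINS complex that activates the helicase, had a change of -0.34 and Mcm10, an initiation factor, -0.22, both with groups apart (adjusted p = 0.232 and 0.163). Cdc45, the third component of the active helicase, and the licensing factor Cdt1 stood at -0.020 (interval -0.20 to 0.16) and -0.0039 (interval -0.24 to 0.24).

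At the replication fork 0 of 4 genes passed in limma, and the median was -0.20. Before adjustment 2 had p under 0.05 on the lower side, beside 7.14% of all genes. Lig1, the ligase that seals Okazaki fragments, read 8.45, 8.44 and 8.37 in the controls and 8.11, 8.01 and 8.18 under dexamethasone. The treated arrays were all lower, with a change of -0.32 (SE 0.067, limma adjusted p = 0.0687). Pola1, the catalytic subunit of polymerase alpha, read 7.99, 8.06 and 7.97 against 7.68, 7.69 and 7.88. Again the groups were apart, with a change of -0.26 (adjusted p = 0.173). Prim1, the primase that works with it, read 8.33, 8.23 and 8.12 against 7.93, 7.91 and 8.38. Here dexamethasone replicate 3 was the highest of the 6 arrays, and the change was -0.15 (adjusted p = 0.700). The flap endonuclease gene Fen1 had a change of -0.026 with an interval of -0.19 to 0.14.

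The genes of nucleotide supply gave the weakest separation. Of the 4 measured, 0 passed in limma, 0 had p under 0.05 before adjustment, the groups overlapped in all 4, and the median change was -0.19. Thymidylate synthase, Tyms, read 7.44, 7.18 and 7.42 in the controls and 7.06, 6.87 and 7.30 under dexamethasone (change -0.27, interval -0.55 to 0.01). Thymidine kinase, Tk1, read 7.73, 8.00 and 8.18 against 7.74, 7.70 and 7.74. The control arrays of Tk1 were spread widely and the treated ones were tight (change -0.24, interval -0.50 to 0.02). Rrm1, the large subunit of ribonucleotide reductase, read 9.63, 9.31 and 9.38 against 9.26, 9.24 and 9.41 (change -0.14, limma adjusted p = 0.627), and its small subunit Rrm2 had a change of -0.11 (adjusted p = 0.753).

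Genes of chromosome structure, kinetochore and checkpoint had a median change of -0.34. The groups were apart in 7 of the 8, all 7 with an unadjusted p under 0.05, though 0 of 8 passed after adjustment (limma). Among all genes 9.46% were apart on the lower side and 7.14% had such a p there. Bub1, a spindle checkpoint kinase, read 7.37, 7.03 and 7.09 in the controls and 6.62, 6.58 and 6.87 under dexamethasone. All treated arrays were lower, with a change of -0.47 (SE 0.11, limma adjusted p = 0.113). Its relative Bub1b, which holds back the anaphase-promoting complex, read 7.86, 7.46 and 7.57 against 7.16, 7.20 and 7.34, a change of -0.39 (adjusted p = 0.153). Cenpa, the histone H3 variant that marks centromeres, read 8.55, 8.57 and 8.45 against 8.31, 8.13 and 8.26. The spread within each Cenpa group was small, and the change was -0.29 (SE 0.071, limma adjusted p = 0.115). Top2a, the topoisomerase that untangles sister chromatids, had the largest difference of the 8, -0.53, with the largest standard error, 0.16 (adjusted p = 0.205). Cenpe, a kinetochore motor, and Cenpf, a kinetochore protein, stood at -0.41 and -0.27, and the checkpoint kinase Ttk at -0.20. Birc5, survivin of the chromosomal passenger complex, was the 1 gene of the 8 whose groups overlapped, at -0.13 (adjusted p = 0.575).

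Mitotic kinases, spindle and exit genes had a median change of -0.36. The groups were apart in 9 of the 10, beside 9.46% of all genes on the lower side. Kif11 and Kif23 fell, 8 did not pass, and 8 of the 10 had an unadjusted p under 0.05, beside 7.14% of all genes. Nusap1, a spindle microtubule protein, read 7.46, 7.15 and 7.25 in the controls and 6.81, 6.67 and 6.92 under dexamethasone. The treated arrays were all lower, and with a change of -0.49 (SE 0.099, limma adjusted p = 0.0641) this was the gene nearest to the threshold among the 44 that did not pass. Tpx2, which activates Aurora A on the spindle, had a larger difference of -0.57 and a larger error (SE 0.12, adjusted p = 0.0800). Ube2c, the ubiquitin-conjugating enzyme of mitotic exit, stood at -0.38, the cytokinesis motor Kif20a at -0.34, the kinase Plk1 at -0.30 and Cdc20, the activator of the anaphase-promoting complex, at -0.27. The Aurora kinase genes differed least. Aurkb was at -0.20 (interval -0.46 to 0.06), and Aurka, the 1 gene of the 10 with overlapping groups, was at -0.14 (interval -0.42 to 0.13).

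The 6 arrays were not ordered alike in every role group. Averaged over the 49 genes and set relative to the mean of the 6 arrays, control replicates 1 to 3 stood at 0.22, 0.080 and 0.11 and dexamethasone replicates 1 to 3 at -0.15, -0.23 and -0.033. Control replicate 1 was the highest of the 6 arrays for 30 genes and dexamethasone replicate 2 the lowest for 36. Dexamethasone replicate 3 was the highest treated array for 41 of the 49. In the mitotic kinase and spindle group, control replicate 1 stood at 0.35, against 0.086 and 0.11 in the other controls. In the nucleotide supply group, control replicate 2 stood at -0.034 and dexamethasone replicate 3 at 0.024, so that the groups overlapped. The groups overlapped as well for the fork genes, with control replicate 3 at 0.038 and dexamethasone replicate 3 at 0.051, and were apart for the other 5 role groups. The squamous marker mean, relative to the 6 arrays, was -0.78, 0.55 and -0.65 in the controls and 0.72, 0.80 and -0.64 under dexamethasone, so dexamethasone replicate 3, the treated array nearest to the controls, was also the treated array low in these markers. The controls had the same inverse order. Among them, replicate 1 was lowest in the squamous markers and highest in the 49 genes, and replicate 2 was highest in the markers and lowest in the 49 genes. The part of the squamous markers in the order of the arrays was not tested beyond the covariate fit above. By level on the array, the 24 brighter genes had a median change of -0.29 and the 25 dimmer ones -0.24, and the Spearman correlation of mean level with change across the 49 genes was -0.053, as a description, since the genes share the same 6 arrays.

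**Figure D4:**
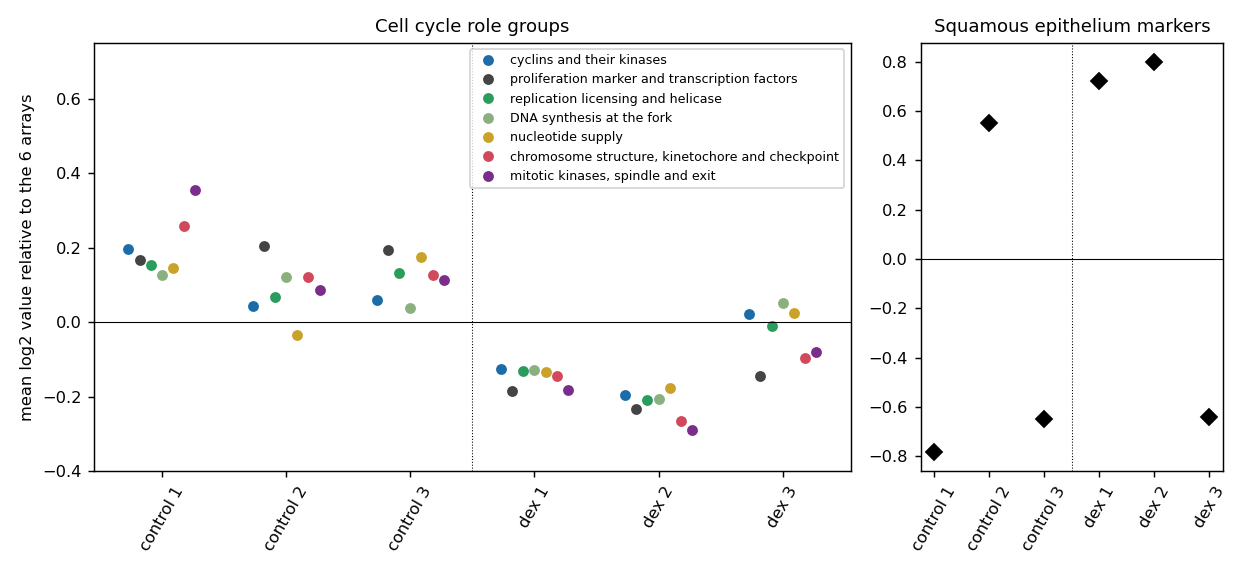
Mean log2 value of each role group of cell cycle genes (left) and of 23 squamous epithelium markers (right, with its own y axis), relative to the mean of the 6 arrays, for each array. Dexamethasone replicates 1 and 2 are below 0 for every role group, while dexamethasone replicate 3 lies between -0.14 and 0.051.

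Further cell cycle genes, taken from lists of textbook genes outside the 51, differed by list. These lists, too, were chosen with earlier results of these data known. Of 55 other mitosis genes, 5 fell and 0 rose. They were the kinetochore scaffold gene Knl1 (1.50-fold, log2 change -0.58, SE 0.093, limma adjusted p = 0.0266), the cytokinesis regulator gene Ect2 (1.48-fold, adjusted p = 0.0362), the condensin genes Smc2 (1.35-fold, 0.0390) and Ncaph (1.28-fold, 0.0392), and the kinesin gene Kif20b (1.29-fold, 0.0450). In this list 27 genes had an unadjusted p under 0.05 on the lower side and 0 on the higher side, 52 of 55 were below 0, and the median change was -0.20. Among all genes 1.04% were called lower, 7.14% had such a p on the lower side and 49.1% were below 0. Knl1 read 8.04, 7.84 and 7.76 in the controls and 7.23, 7.24 and 7.42 under dexamethasone, with no overlap. The pattern was fainter among 40 other replication genes, of which 0 passed in limma, with a median of -0.069 and 31 of 40 below 0. Before adjustment, 7 of the 40 had p under 0.05 on the lower side and 0 on the higher side. The smallest p there belonged to Pole, the leading strand polymerase, to the primase subunit gene Prim2 and to the maintenance methyltransferase gene Dnmt1, at -0.30, -0.28 and -0.21 (adjusted p = 0.105, 0.152 and 0.161).

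Of 28 other cyclins, kinases and cell cycle transcription factors, 1 fell and 27 did not pass, with a median of -0.060. The 1 was Cdc25b, a phosphatase that activates Cdk1, which read 8.60, 8.72 and 8.48 in the controls and 8.10, 8.12 and 8.10 under dexamethasone. The treated arrays were nearly equal and all lower, and Cdc25b fell 1.41-fold (log2 change -0.49, SE 0.072, limma adjusted p = 0.0188). Of 23 inhibitors and brakes of the cycle 0 passed in limma, with a median of 0.053 and 13 of 23 above 0. Before adjustment 1 of them had p under 0.05 on the higher side and 2 on the lower side. The shares over all genes were 5.97% and 7.14%. Cdkn2b, an inhibitor of Cdk4 and Cdk6, read 9.93, 10.04 and 10.04 in the controls and 10.30, 10.25 and 10.33 under dexamethasone. All treated arrays were higher, with a change of 0.29 (SE 0.062, limma adjusted p = 0.0752). Next in p came Rbl1, a pocket protein, and Pkmyt1, a kinase that inhibits Cdk1, at -0.15 and -0.14 (adjusted p = 0.341 and 0.362). Over the 4 further lists, with 146 genes measured, 6 were called lower, beside 1.04% of all genes. The number became 3, 1 and 1 when control replicate 1, 2 or 3 was left out, and 0, 0 and 11 when dexamethasone replicate 1, 2 or 3 was left out. With the squamous markers as a covariate it was 3, and with array weights 32 were called lower and 1 higher.

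**Figure D5:**
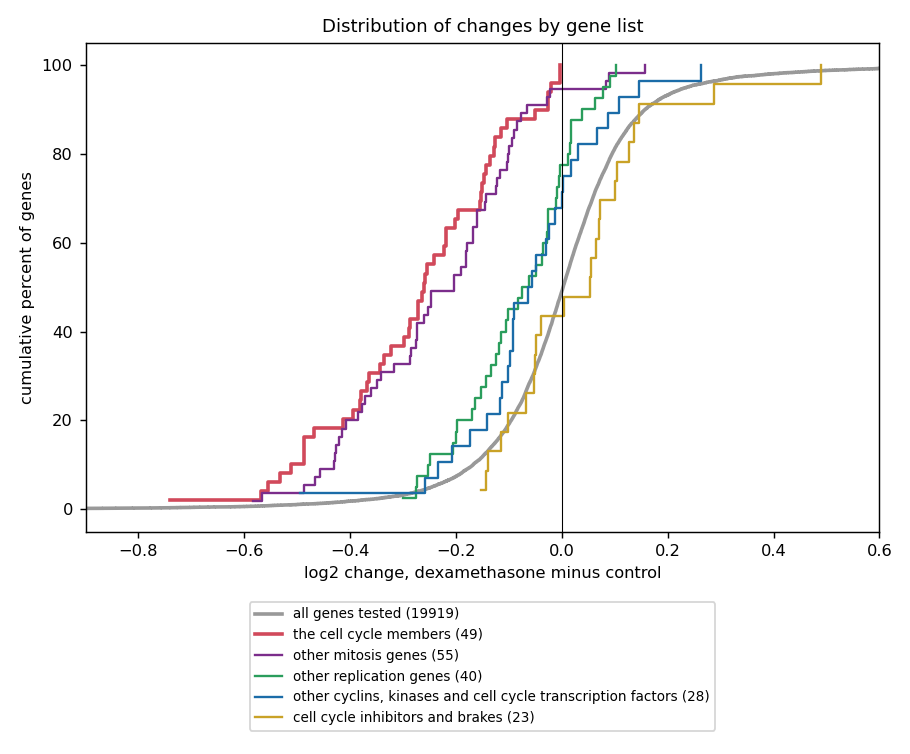
Cumulative percent of genes (y axis) by log2 change, dexamethasone minus control (x axis), for the 49 genes, 4 further cell cycle lists and all 19919 genes tested, with the number of genes in brackets. The curves of the 49 genes and of the other mitosis genes lie to the left of all genes, with medians of -0.26 and -0.20, and that of the inhibitors and brakes lies near all genes, with a median of 0.053.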

How the data were processed

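The authors deposited 1 table of log2 expression values, 1 per probe set and array, for 6 arrays. Per the submitters' processing notes, R 2.9, limma and RMA (robust multi-array average) were used. For the chip definition and its genome build, the sources used here give nothing. RMA commonly equalises the distribution of all arrays, which makes changes relative, and it compresses dim signals. Medians of the 6 arrays were 7.96 to 8.00. Of 20985 probe sets, 19921 carried 1 symbol in the platform annotation and 1064 were not listed. For 2 symbols with more than 1 probe set the brighter was taken, which left 19919 genes and applied no filter on level.

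The model for all genes was lmFit followed by eBayes (limma 3.58.1, R 4.3.3), 3 against 3 arrays and two-sided. Benjamini-Hochberg adjustment covered the 19919 genes. Adjusted p-values and standard errors (SE) are limma's, and 95% intervals are its moderated ones, not adjusted. An exact permutation test of 3 against 3 cannot go below p = 0.1 and is not given. The scripts were tested on simulated data.

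The members and lists were chosen with earlier results of these data known. Per-array values are given for genes past the threshold and for the 3 of smallest p in each role group. Of each further list the genes past the threshold (up to 6), or else the 3 of smallest p, are named. Promoter windows are RefSeq's (GRCm38.p6), matched by symbol. The alternatives were the replicate number as a block, median centring, quantile normalization, a filter on the dimmest 40%, a trend and robust prior, array weights, all probe sets, a squamous marker covariate and each array left out in turn.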

Additional observations from a re-analysis of the deposited data

How the results depend on the processing

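With 1 array left out, the count of members called lower ranged from 0 to 7, their median log2 change from -0.30 to -0.22, the count of all genes called lower from 48 to 297 and higher from 39 to 284, and the count of further cell cycle genes called lower from 0 to 11. In no alternative was a member called higher. Array weights called 30 members lower instead of 5, together with 1003 genes lower and 773 genes higher, 32 further cell cycle genes lower and 1 higher. The squamous covariate left 3 further cell cycle genes lower instead of 6.

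With the replicate number as a block, 2 members were called lower (Mki67 and Mcm6), with 116 genes lower and 104 genes higher among all and 0 further cell cycle genes. Whether the numbers pair the samples was not settled. Deviations from the group means correlated across genes at -0.28, 0.35 and 0.23 for numbers 1, 2 and 3. Control replicate 1 correlated best with dexamethasone replicate 3 (0.32) and control replicate 2 with dexamethasone replicate 1 (0.38). Control replicate 3 correlated best with its own number (0.23). With 3 arrays per group the deviations are tied to each other, so these correlations cannot decide it.

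The sign turned only in 6 genes with small changes. With 1 array left out, the log2 change ranged from -0.063 to 0.072 for Cdk4, from -0.090 to 0.068 for Cdt1, from -0.079 to 0.047 for Cdc45, from -0.062 to 0.039 for Fen1 and from -0.052 to 0.0045 for E2f1. Cdk4 stood at 0.018 with quantile normalization, 0.020 with array weights and 0.063 with the squamous covariate. Cdc45 stood at 0.014 with array weights and 0.017 with the covariate, which put Cdt1 at 0.11 and Rrm2 at 0.0093. The causes were not tested. Median centring, quantile normalization, the filter on dim genes and all probe sets each gave the same 5 called members, and the trend and robust prior added Nusap1.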

Other observations

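The 3 genes of the Cdc25 phosphatase family, read together after their values were seen, did not share a direction. Beside the fall of Cdc25b, Cdc25a had a log2 change of 0.26 and Cdc25c of -0.10 (limma adjusted p = 0.426 and 0.570), and differences between them were not tested. Among the inhibitors, also picked after their values were seen, Cdkn1c (p57) read 10.4, 10.3 and 10.4 in the controls and 10.4, 10.6 and 11.6 under dexamethasone. Its groups were just apart, with the highest control at 10.41 and the lowest treated array at 10.45. The difference of 0.49 (SE 0.26, limma adjusted p = 0.490) lay mostly in dexamethasone replicate 3. Cdkn1a (p21) likewise was highest on that array, at 12.0, against 11.5 to 11.6 on the other 5 (change 0.13, adjusted p = 0.712).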
